A study of Mus musculus with 2 samples.

Results

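Mir532, Mir188, Mir362, Mir501 and Mir500 are 5 microRNA (miRNA) genes that follow each other on the same strand within one intron of Clcn5 on the mouse X chromosome. They were taken by gene symbol, for the identifiers in the count tables, from the 2202 annotated miRNA genes measured. The samples were adrenal glands of female B6CASTF1/J mice, an F1 cross between the strains C57BL/6J and CAST/EiJ, aged 18 to 20 months. Small RNA from total RNA was sequenced in 1 group of 2 biological replicates, with a library size range under 30 in the labels. The replicates are separate tissue samples entered under one donor record, so any spread between them is that of these samples. The labels do not say whether a sample holds 1 gland or several, or glands of more than 1 animal. No other age, sex, strain or tissue was analysed here, so the data give the level of each miRNA and the difference between the 2 libraries.

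Intronic miRNAs are cut from the transcript of their host gene or from a primary transcript of their own. The Drosha enzyme releases each hairpin in the nucleus, Dicer trims it in the cytoplasm, and a strand of the resulting duplex then guides the Argonaute protein to messenger RNAs that pair with its seed, the bases near its 5′ end. Clcn5 encodes ClC-5, a chloride and proton exchanger of endosomes that is best known from the proximal tubule of the kidney, and its loss causes Dent disease in humans. An equivalent cluster lies in the human CLCN5 gene. Clcn5 messenger RNA was not measured in these libraries.

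On build mm10 with GENCODE M21, the cluster covers 10815 bases of chromosome X on the minus strand. In the order of transcription, Mir532 (ENSMUSG00000070139.1) lies at 7248402 to 7248497, and Mir188 (ENSMUSG00000065398.1) follows after 345 bases at 7247989 to 7248056. The widest gap, 5942 bases, separates Mir188 from Mir362 (ENSMUSG00000070100.1) at 7241982 to 7242046. Mir501 (ENSMUSG00000076251.1) comes 630 bases later at 7241243 to 7241351, and Mir500 (ENSMUSG00000070108.2) comes after a further 3468 bases at 7237683 to 7237774. All 5 sit in intron 3 of transcript Clcn5-202, which is 103648 bases long and is also intron 2 of Clcn5-203 and intron 3 of Clcn5-204. They lie outside Clcn5-201 and Clcn5-205, the other annotated transcripts of the gene. No other miRNA gene of the annotation lies within Clcn5.

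The mature sequences show which members can be told apart by reads and which share a seed. RefSeq (GRCm38.p6) gave 9 of them for the 5 genes, printed 5′ to 3′ with the seed, bases 2 to 8, in capitals. The sequence of miR-532-5p was not used here.
miR-532-3p: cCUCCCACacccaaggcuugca
miR-188-5p: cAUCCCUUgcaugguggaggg
miR-188-3p: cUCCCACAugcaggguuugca
miR-362-5p: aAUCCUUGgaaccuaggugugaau
miR-362-3p: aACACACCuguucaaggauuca
miR-501-5p: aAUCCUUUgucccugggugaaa
miR-501-3p: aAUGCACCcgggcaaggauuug
miR-500-5p: aAUCCUUGcuaucugggugcuuagu
miR-500-3p: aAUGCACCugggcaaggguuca

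Seeds are shared across the cluster although no mature sequence is. The 3p sequences of Mir501 and Mir500 have the same seed, and so do the 5p sequences of Mir362 and Mir500. The seed of miR-501-5p matches that of miR-500-5p at 6 of 7 bases. In miR-188-3p and miR-532-3p, the same run of letters is shifted by 1 base, and 17 of the 21 bases that then face each other are the same. The most alike pair was miR-501-3p and miR-500-3p, with 18 of 22 bases the same. Counted from 1 at the 5′ end, with the base of miR-500-3p first, they differ by U9C, G18A, C21U and A22G.

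Similarity of the hairpins bears on the counts, since reads that align to several places are left out of the gene counts. None of the 5 hairpins shares a run of 18 bases with another annotated miRNA gene that it does not overlap, against 1120 of the 2202 genes that do. Each of the 9 mature sequences had at least 4 mismatches to every other annotated hairpin, on either strand and without gaps. The hairpins of Mir501 and Mir500, the most alike of the 10 pairs, had 74 of 91 aligned bases the same, or 81.3%. They are printed here as the most alike pair, with the mature sequences in capitals. Whether any reads of Mir501 were counted for Mir500, or the reverse, was not tested. The 5p sequences have 15 of 22 facing bases the same, fewer than the 3p sequences.
Mir501: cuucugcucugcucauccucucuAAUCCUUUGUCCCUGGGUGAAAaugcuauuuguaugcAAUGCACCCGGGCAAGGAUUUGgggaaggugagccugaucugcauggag
Mir500: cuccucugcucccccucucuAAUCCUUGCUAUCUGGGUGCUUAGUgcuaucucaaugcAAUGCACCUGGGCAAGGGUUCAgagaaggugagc

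The count tables assign reads to a hairpin gene, so the 5p and 3p sequences of a gene were not resolved. Own-strand counts in miRNA genes totalled 2590051 in replicate 1 and 2291030 in replicate 2. Levels are given as CPM, counts per 1000000 of these totals, and intervals are exact Poisson 95% intervals that cover counting error only. The cluster was present at moderate levels, with 6054 counts in replicate 1 and 6180 in replicate 2. These were 0.234% (Wilson 95% interval 0.228 to 0.240) and 0.270% (0.263 to 0.277) of all own-strand counts, a summed level of 2517 ± 255 CPM (SD, n = 2). In bulk tissue, a lower level in each cell and fewer cells that carry a miRNA cannot be told apart.

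Mir501 was the highest member. It had 2752 counts in replicate 1 and 2603 in replicate 2, which is 1063 CPM (interval 1023 to 1103) and 1136 CPM (1093 to 1181), a mean of 1099 ± 52.1 CPM (SD, n = 2). In rodent neurons its 3p sequence is known as a dendritic regulator of a glutamate receptor subunit. The 2 intervals overlapped, and Mir501 ranked 72 among all miRNA genes by mean CPM.

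Mir532 came next. Its 5p sequence is known in human cancer cells for targeting the transcription factor RUNX3. It had 1825 counts in replicate 1 and 2063 in replicate 2, which is 705 CPM (interval 673 to 738) and 900.5 CPM (862 to 940.2). The mean was 803 ± 138 CPM (SD, n = 2), at rank 90, and the 2 intervals did not overlap.

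Mir188, described in mouse bone marrow stromal cells as a regulator of the shift from bone to fat formation with age, ranked below Mir532. It had 707 counts in replicate 1 and 880 in replicate 2, which is 273 CPM (interval 253 to 294) and 384 CPM (359 to 410.3). The mean was 329 ± 78.6 CPM (SD, n = 2), at rank 127, and replicate 2 was again the higher library with intervals apart.

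The remaining members, Mir500 and Mir362, had overlapping counting intervals in the 2 libraries. Mir500 had 626 counts in replicate 1 and 509 in replicate 2, which is 242 CPM (interval 223 to 261) and 222 CPM (203 to 242), a mean of 232 ± 13.8 CPM (SD, n = 2). Mir362, whose 5p sequence is known in human cancer cells for targeting the deubiquitinase CYLD, was the lowest. It had 144 counts in replicate 1 and 125 in replicate 2, which is 55.6 CPM (interval 46.9 to 65.5) and 54.6 CPM (45.4 to 65.0). Its mean was 55.1 ± 0.733 CPM (SD, n = 2), at rank 215 of all 2202 miRNA genes. It stood above 36.9% of the 339 miRNA genes with at least 10 counts in each library.

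The order of levels was Mir501, Mir532, Mir188, Mir500 and Mir362 in both libraries. For each neighbouring pair in this order, the 2 values of the higher member lay above both values of the lower one. Mir501 exceeded Mir532 by 1.37-fold in mean CPM, Mir532 exceeded Mir188 by 2.44-fold, Mir188 exceeded Mir500 by 1.42-fold and Mir500 exceeded Mir362 by 4.21-fold. The highest member exceeded the lowest by 19.1-fold in replicate 1 and 20.8-fold in replicate 2. Counts of different miRNAs also carry the efficiency with which each sequence is ligated and amplified, so these folds are of reads. Levels did not run with position, since the lowest and the highest member, Mir362 and Mir501, are 630 bases apart.

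**Figure D1:**
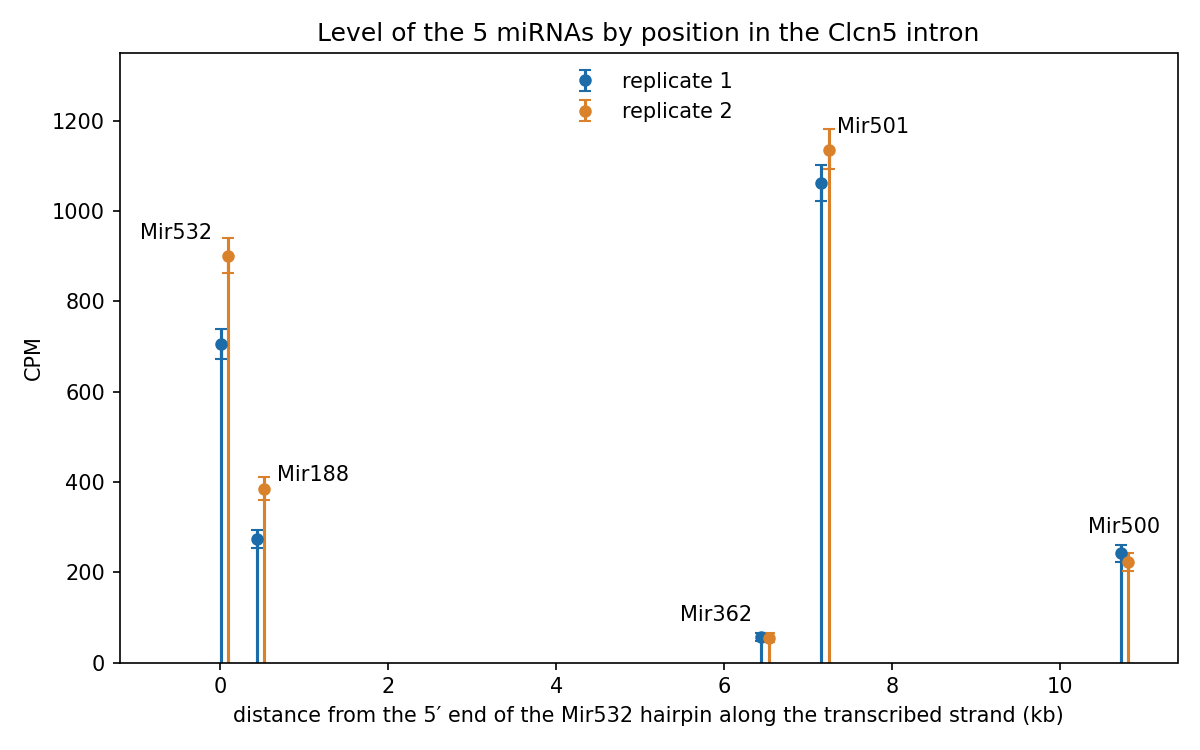
CPM of each member (vertical axis, from 0) in replicate 1 and replicate 2 against its distance in kb from the 5′ end of the Mir532 hairpin along the transcribed strand, with exact Poisson 95% intervals. Mir532 and Mir188 are higher in replicate 2 with intervals apart, while Mir362 and Mir500 have overlapping intervals.

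As shares of the cluster's own counts, Mir501 took 45.5% (Wilson 95% interval 44.2 to 46.7) in replicate 1 and 42.1% (40.9 to 43.4) in replicate 2. Mir532 took 30.1% (29.0 to 31.3) and 33.4% (32.2 to 34.6), and Mir188 took 11.7% (10.9 to 12.5) and 14.2% (13.4 to 15.1). Replicate 2 thus held a larger share of both members before the 5942-base gap, which together took 41.8% (40.6 to 43.1) of the cluster in replicate 1 and 47.6% (46.4 to 48.9) in replicate 2. Mir500 took 10.3% (9.60 to 11.1) and 8.24% (7.58 to 8.95), and Mir362 took 2.38% (2.02 to 2.79) and 2.02% (1.70 to 2.40). Over the libraries the shares averaged 43.8% ± 2.36 for Mir501, 31.8% ± 2.29 for Mir532, 13.0% ± 1.81 for Mir188, 9.29% ± 1.49 for Mir500 and 2.20% ± 0.252 for Mir362 (SD, n = 2 each).

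The 2 libraries were then compared for each member against all miRNA genes tested. This comparison is of 2 libraries of the same group, with counting error as its only spread, and no condition differs between them. Log2 ratios are of replicate 1 over replicate 2 with edgeR's TMM scaling. Mir188 had a log2 ratio of -0.53 (exact 95% interval -0.68 to -0.39), and its adjusted p was 9.52e-13 by the exact conditional binomial test. Mir532 had a ratio of -0.39 (-0.48 to -0.30) and its adjusted p by this exact test was 1.10e-16. Both were lower in replicate 1, and passed, under every scaling and filter tried. The ratio of Mir532 ranged from -0.41 with a summed count of at least 200 to -0.26 with no filter on low counts, and that of Mir188 from -0.55 to -0.40 under the same choices.

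Mir501 had a log2 ratio of -0.13 (-0.21 to -0.06) and its adjusted p by the exact test was 0.00139. It did not pass with no filter on low counts (ratio -0.0015, adjusted p 1.0) or without genes that share 18 bases (-0.05, adjusted p 0.239). Mir362 had a ratio of -0.01 (-0.37 to 0.35) (adjusted p 0.989, exact test). Mir500 had a ratio of 0.08 (-0.09 to 0.26) (adjusted p 0.423, exact test), and passed with no filter on low counts (0.22, adjusted p 0.0418). At 144 and 125 counts, differences of Mir362 within this interval were not detectable.

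The members' 3 of 5 calls have to be read against a high background, since 62.7% of the 367 miRNA genes tested passed in the same comparison. In the direction of the 3 called members, higher in replicate 2, 30.2% of all genes tested passed, and in the other direction 32.4% did, against 0 of the 5 members. The members' median absolute log2 ratio was 0.13 against 0.46 over all genes tested, and all 5 lay within 2-fold, as did 298 of the 367. The median signed ratio was -0.13 for the members and -0.02 for all genes tested. Among the 139 other tested genes with a mean CPM between those of Mir362 and Mir501, the median absolute log2 ratio was 0.39 and 71.9% passed. Mir188, the member with the largest ratio, exceeded 54.2% of all genes tested in absolute ratio. Mir532 exceeded 42.5%, Mir501 17.4%, Mir500 11.2% and Mir362 0.817%. The set as a whole was not tested against other genes.

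**Figure D2:**
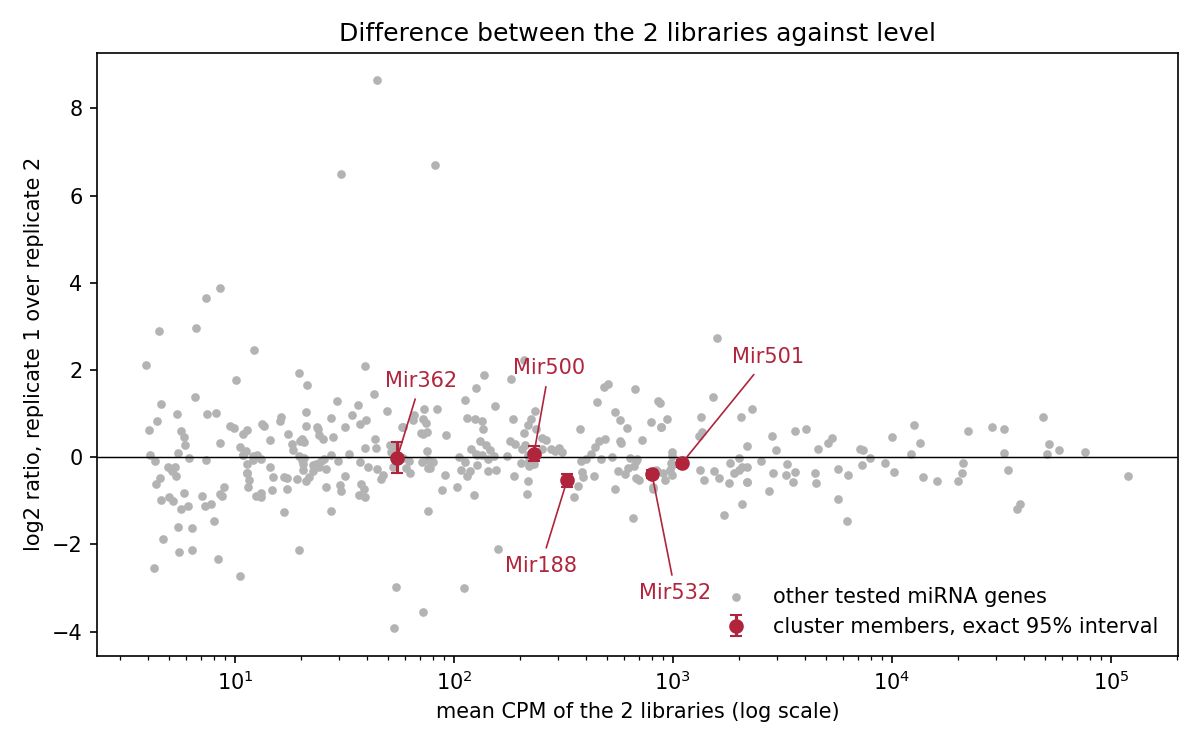
Log2 ratio of replicate 1 over replicate 2 (vertical axis) against mean CPM (horizontal log axis) for the 367 miRNA genes tested, with the 5 members in red and their exact 95% intervals. The members lie between -0.53 and 0.08, inside the main band of points. The farthest points include genes with few or no counts in a library, whose ratio depends on the prior count of 0.5.

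**Figure D3:**
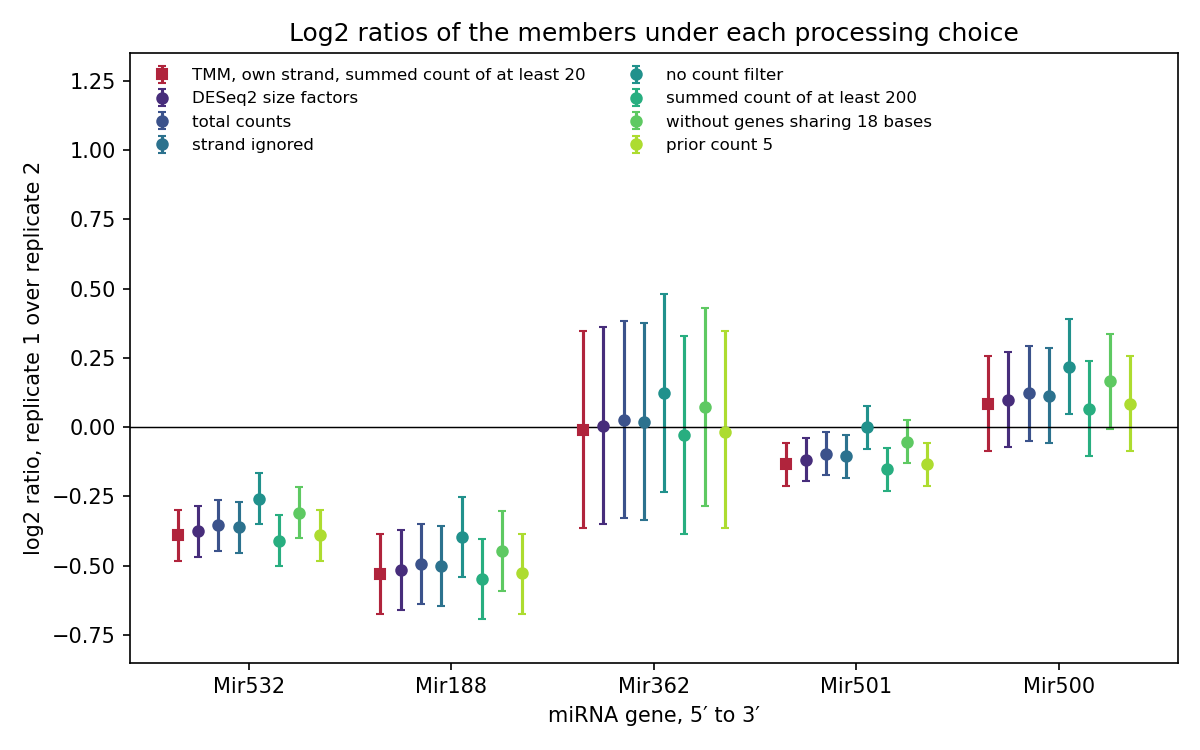
Log2 ratio of replicate 1 over replicate 2 (vertical axis) for each member in 5′ to 3′ order under the scaling and filter used here (red squares) and 7 alternatives (circles), with exact 95% intervals. Mir532 and Mir188 stay below 0 under each choice, while the sign of Mir362 changes and the intervals of Mir501 and Mir500 include 0 under some choices.

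Ratios between members of one library do not depend on library scaling. The difference in log2 ratio was computed for all 10 pairs of members, with exact 95% intervals of the odds ratio that cover counting error only and are not adjusted for the number of pairs. The intervals excluded 0 for 7 of the 10 pairs, which share members and are not independent. They were the 6 pairs of Mir532 or Mir188 with a gene beyond the 5942-base gap, with differences from -0.61 to -0.26 (the member before the gap minus the member after it), and the pair of Mir501 and Mir500. Position was looked at after these values were seen, so this is a description.

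Between members on the same side, Mir532 had 2.58 counts for each count of Mir188 in replicate 1 and 2.34 in replicate 2, a log2 difference of 0.14 (-0.03 to 0.31). Mir362 had 0.0523 counts for each of Mir501 in replicate 1 and 0.0480 in replicate 2, a log2 difference of 0.12 (-0.24 to 0.49). Against Mir500 the log2 difference of Mir362 was -0.09 (-0.49 to 0.30). Mir501 had 4.40 counts for each of Mir500 in replicate 1 and 5.11 in replicate 2, a log2 difference of -0.22 (-0.41 to -0.03). The pair farthest apart in ratio was Mir188 and Mir500, 10214 bases from each other. It had 1.13 counts of Mir188 for each of Mir500 in replicate 1 and 1.73 in replicate 2, a log2 difference of -0.61 (-0.84 to -0.39).

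Opposite-strand counts were 0 for all 5 members in both libraries. Taking 3 counts as the limit behind a count of 0, opposite-strand levels of up to 1.16 CPM (replicate 1) and 1.31 CPM (replicate 2) remain possible. Strand-ignored counts of the members were equal to their own-strand counts.

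Outside the cluster, the RefSeq table held 2 mature sequences with the seed of any of the 9 printed above. The seed of miR-532-5p was not searched. They are shown in the same way.
miR-329-3p: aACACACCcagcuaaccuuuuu
miR-7061-3p: uAUCCCUUuuauuuccuuuuag
Mir329, which shares its 3p seed with Mir362 and belongs to the imprinted miRNA region of chromosome 12, had 403 counts in replicate 1 and 343 in replicate 2. Its level was 153 ± 4.16 CPM (SD, n = 2), above that of Mir362 in both libraries. Its log2 ratio was 0.02 (-0.19 to 0.23), and its adjusted p was 0.934 by the exact test. Mir7061, which shares the 5p seed of Mir188, had 1 count in replicate 1 and 0 in replicate 2, within the 3 counts that a count of 0 allows. Among the 2 seed partners, 1 was tested and 0 passed, where 62.7% of all genes tested passed.

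Other X-linked clusters stood above and below the Clcn5 cluster in summed level. The Clcn5 cluster reached 2337 CPM in replicate 1 and 2697 CPM in replicate 2. The Mir322 cluster, whose members are known from muscle differentiation and cell cycle control, reached 9162 and 10587 CPM over 7 genes. The Mir221 cluster, known for repressing the cell cycle inhibitor p27 in human cells, reached 2285 and 1306 CPM over 2 genes. With 2 libraries no permutation test of these levels can pass 0.05, and none was made. In replicate 1 the sums of the Clcn5 and Mir221 clusters were close. Of the other X-linked chains of detected genes, Mirlet7f-2 with Mir98 had a mean of 8224 CPM and Mir363 to Mir106a of 101 CPM.

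Within the Mir322 cluster, Mir322 had a log2 ratio of -0.17 and Mir351 of -0.57, Mir503 had 0.65 and Mir542 had 0.05. The 3 Mir450 genes share 18 bases with another miRNA gene, so their reads can be lost. Mir450-2 had 24 and 39 counts with a log2 ratio of -0.90, Mir450b had 62 and 64 counts with -0.26, and Mir450-1 had 3 and 13 counts, too few to be tested. Of 6 genes tested in this cluster, 4 passed, 1 as higher in replicate 1 and 3 as higher in replicate 2. That count was 3 with a summed count of at least 200, where 79% of all genes tested passed. It was also 3 without genes that share 18 bases, where 61.6% passed. The Mir450 genes were not tested under either choice. Mir221 had a log2 ratio of 0.50 and Mir222 of 1.60, and both passed, where 62.7% of all genes tested did. The log2 ratios spanned 0.61 within the Clcn5 cluster, 1.55 within the Mir322 cluster and 1.11 between Mir221 and Mir222. These spans come from different numbers of genes at different depths, and their difference was not tested.

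**Figure D4:**
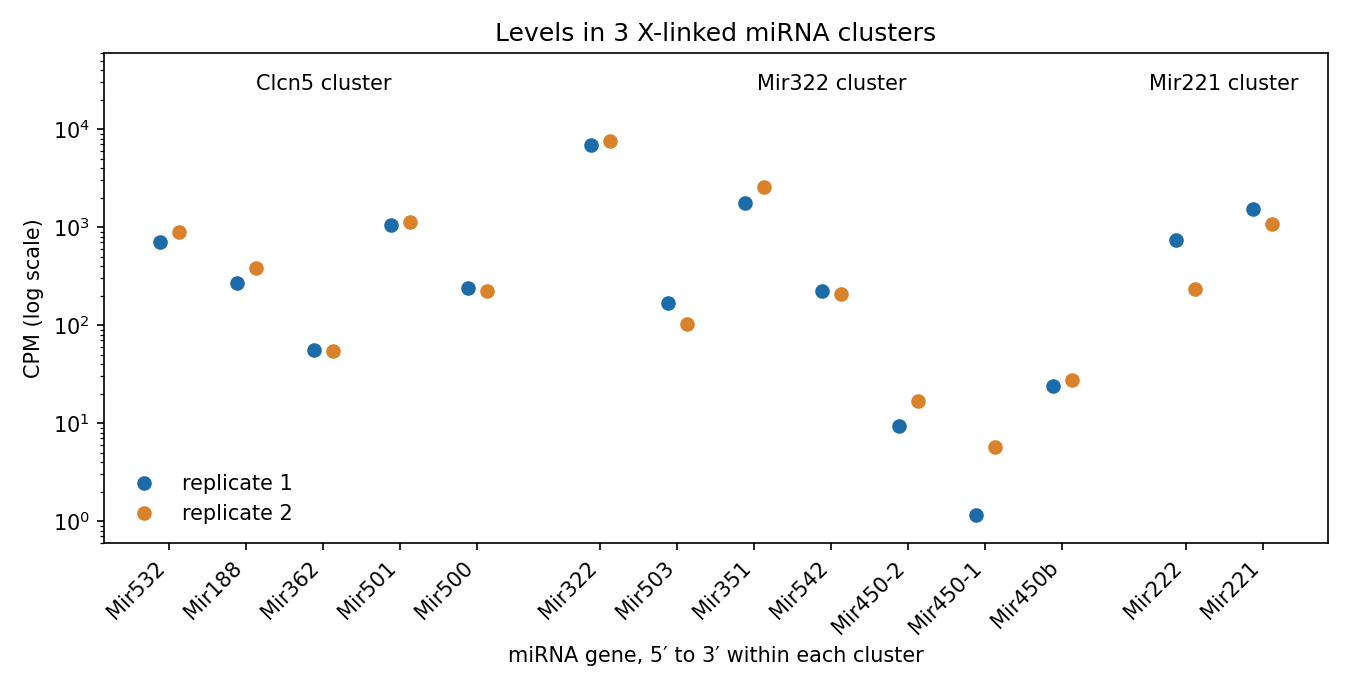
CPM (vertical log axis) in replicate 1 and replicate 2 of each gene of the Clcn5, Mir322 and Mir221 clusters, in 5′ to 3′ order within each cluster. The Clcn5 members lie between 54.6 and 1136 CPM, below Mir322 and above the 3 Mir450 genes.

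The X chromosome as a whole held 142 measured miRNA genes, of which 34 had at least 10 counts in each library, and 4.04% of counts in replicate 1 and 4.33% in replicate 2. The Clcn5 cluster took 6.01% ± 0.316 of these X-linked counts (SD, n = 2). Among X-linked miRNA genes by mean CPM, Mir501 ranked 9, Mir532 ranked 10, Mir188 ranked 13, Mir500 ranked 14 and Mir362 ranked 23. The reads were not assigned to the C57BL/6J or CAST/EiJ X chromosome.

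Detected miRNA genes formed 43 chains of same-strand neighbours no more than 10000 bases apart, of which 7 are on the X chromosome. By summed CPM, 18 of the 43 chains stood above the Clcn5 cluster. The log2 ratios of its members spanned 0.61, with 16 chains spanning less and 26 more, and the median span was 0.72. On the X chromosome, Mirlet7f-2 with Mir98 (0.42) and Mir421 with Mir374b (0.59) spanned less, and the chains of Mir363 to Mir106a (0.71) and of Mir224 with Mir452 (0.72) spanned more, besides the Mir322 and Mir221 clusters. Genes of these 4 further chains were named after their values were seen. Chains differ in their number of genes and in depth, and their spans were not tested against each other.

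The genes most like each member were taken by distance in log2(CPM + 1) over the 2 libraries. For Mir532 they were Mir185, Mir409 and Mir330, at distances of 0.11, 0.13 and 0.20. For Mir188 they were Mir667, Mir181b-2 and Mir3102 (0.24, 0.28 and 0.35), and for Mir362 they were Mir24-1, Mir1941 and Mir345 (0.12, 0.16 and 0.18). For Mir501 they were Mir92-1, Mir487b and Mir146 (0.22, 0.23 and 0.24), and for Mir500 they were Mir300, Mir467d and Mir542 (0.08, 0.11 and 0.13). Only Mir542 of these 15 is X-linked. Mir181b-2, Mir24-1, Mir92-1, Mir487b, Mir146 and Mir467d share 18 bases with another miRNA gene, so their reads can be lost. A distance over 2 libraries measures likeness of level and of 1 ratio and nothing more.

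Marker miRNAs listed for several tissues and cells, endocrine cells among them, moved between the libraries. Whether a listed miRNA is specific to its tissue was not tested. The 4 striated muscle miRNAs summed to 597 CPM in replicate 1 and 81.2 CPM in replicate 2, where Mir208a had no counts. The 5 epithelial miRNAs summed to 43.6 and 249 CPM, the 3 red cell miRNAs to 902 and 490.2 CPM, and the endothelial Mir126a stood at 64752 and 33413 CPM. The 4 kidney miRNAs summed to 107 CPM in replicate 1 and 72.9 CPM in replicate 2, and Mir194-1 and Mir194-2 among them share 18 bases with another miRNA gene, so their reads can be lost. The 4 endocrine cell miRNAs, led by Mir375, summed to 66107 and 56588 CPM, and the 3 adipose miRNAs to 58831 and 46888 CPM. Nearly all of the adipose sum was Mir378a at 58448 and 45933 CPM, while Mir193a stood at 370.3 CPM in replicate 1 and 943 CPM in replicate 2 with a log2 ratio of -1.39. The limit of shared bases also holds for Mir378a and Mir365-1 of the adipose list and for Mir7-1 and Mir7-2 of the endocrine list. At least 10 counts were found for 4 of 4 muscle miRNAs in replicate 1 and 1 in replicate 2, for 3 and 4 of the 5 epithelial ones, for 3 of the 4 kidney ones in each library, and for every red cell, endothelial, endocrine and adipose miRNA listed. No miRNA that defines the adrenal gland alone was on the list, so the labelled tissue could be checked only against these. The epithelial sum was higher in replicate 2, mostly through Mir200c at 25.1 and 197 CPM, while the epithelial Mir429 had 19 counts in replicate 1 and 8 in replicate 2. The sums of all other lists were higher in replicate 1. Against these sums, the red cell Mir486 stood at 70.7 CPM in replicate 1 and 81.6 CPM in replicate 2. The kidney Mir194-2 stood at 22.8 CPM in replicate 1 and 25.8 CPM in replicate 2. Neither Mir486 nor Mir194-2 passed, and the other red cell and kidney miRNAs listed were higher in replicate 1. The part of any of these cells in the members' ratios was not tested.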

How the data were processed

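Per the deposited notes with the tables, the authors quantified reads on build mm10 with GENCODE M21. The authors deposited raw counts per miRNA gene. Of 3 columns, 1 ignores strand, 1 holds the gene's own strand, used here, and 1 the opposite strand. The aligner, counter and trimming steps were not given in the sources used here. The build is of C57BL/6J, and loss of CAST/EiJ reads was not tested. The first 4 rows name no gene and were left out. Of 9807567 and 6993665 reads in replicates 1 and 2, 26.4% and 32.8% were own-strand gene counts and 24.0% and 28.0% aligned to several places. Unmapped reads made up 40.6% in replicate 1 and 29.8% in replicate 2.

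All 2202 identifiers matched GENCODE M21. TMM factors (edgeR 4.0.16) were 1.01 and 0.987, computed over genes with a summed count of at least 20. Each gene was compared by a two-sided exact conditional binomial test (scipy 1.17.1), with Benjamini-Hochberg adjustment over all genes tested at 0.05 and a prior count of 0.5. In simulated Poisson counts of this comparison (369 genes tested), 94.4% of genes changed 2-fold and 1.20% of unchanged genes were called. These counts hold only the counting error that the test assumes, so the rates do not cover spread between samples. DESeq2 1.42.0 size factors were an alternative. Sequences came from RefSeq, and hairpins were aligned with Biopython 1.88. Genes were named by a fixed rule: all members, the 3 genes nearest each member, seed partners, the Mir322 and Mir221 clusters, and the marker lists. Genes of the further X-linked chains fall outside this rule and were named after their values were seen. The members, lists and tests were chosen with earlier results of these data known. PCR copies are not independent molecules, so intervals and limits cover counting error only.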

Additional observations from a re-analysis of the deposited data

How the results depend on the processing

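The calls of Mir532 and Mir188 did not depend on the choices tried, while the calls of Mir501 and Mir500 and the sign of Mir362 did. The choices of scaling, filter and strand rescale all members of a library by a common factor, so the order of the members within a library could not change. A prior count of 5 is not a rescaling and enters the ratios only. With it, the log2 ratio was -0.528 for Mir188 and -0.0176 for Mir362. Mir501 did not pass with no count filter (log2 ratio -0.0015) or without genes that share 18 bases (-0.052), and Mir500 passed with no count filter (0.22). Mir362, which passed under none, had a ratio of 0.0045 with DESeq2 size factors, 0.026 with total counts, 0.018 with strand ignored, 0.12 with no count filter and 0.071 without genes that share 18 bases. Mir329 turned to -0.0011 with a summed count of at least 200. The scaling computed with no count filter moved all log2 ratios up by 0.13 relative to the one used here, and that without genes that share 18 bases by 0.08. With no count filter 219 of 724 genes tested passed, against 230 of 367.

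With strand ignored, the total is smaller and the cluster stood at 2897 CPM, Mir362 at 63.5, Mir501 at 1266 and Mir500 at 268 CPM. Per 1000000 reads of the tables, all classes included, the cluster stood at 750.5, Mir532 at 241, Mir188 at 99.0, Mir362 at 16.3, Mir501 at 326 and Mir500 at 68.3. Without Mir500 and Mir501, the shares of the remaining counts were 67.7% for Mir532, 27.6% for Mir188 and 4.73% for Mir362. Leaving out a library gives the value of the other, and the ratios then have none. No paired analysis was possible because the 2 libraries form a single group. Counting error limits Mir362 most, and the spread between animals cannot be estimated for the ratios from 2 libraries. The alternatives for Mir329 and the X-linked clusters were chosen after seeing the data.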
